A study of Homo sapiens with 8 samples.

Results

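PYCARD, CASP1, CASP4, CASP8, GSDMD, IL18, NLRP1 and NLRX1, genes of the inflammasome and of pyroptotic cell death, were followed across 8 RNA-seq libraries of 2 human breast epithelial lines. They are 8 of the 13842 genes in the expression table. They were selected by symbol, with the levels and fold changes of these libraries already known, so their values are a description and carry no p-value. MCF10A is an immortalized, non-tumorigenic mammary epithelial line, and MCF10 DCIS.COM (DCIS.COM) is a line of the same lineage that forms lesions resembling ductal carcinoma in situ. Both were stably transduced with the lentiviral vector pLOC, either empty (pLOC-empty) or carrying the long noncoding RNA MALINC1 (pLOC-MALINC1), and selected with blasticidin. This gave 4 groups of 2 libraries: MCF10A pLOC-empty, MCF10A pLOC-MALINC1, DCIS.COM pLOC-empty and DCIS.COM pLOC-MALINC1. MCF10A was kept with horse serum, EGF, hydrocortisone, insulin and cholera toxin, and DCIS.COM with horse serum without those supplements, so the line and its medium cannot be told apart. The sources used here do not say whether the 2 libraries of a group came from separate cultures or transductions, and p-values then measure the spread between libraries, which may be technical.

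An inflammasome is a protein complex that forms in the cytosol around a sensor of infection or damage. The sensor recruits the adaptor ASC, the product of PYCARD, in many cases through a pyrin domain, and ASC recruits procaspase-1 through its CARD domain. Active caspase-1 matures the cytokines IL-1beta and IL-18 and cuts gasdermin D, whose fragment opens pores in the plasma membrane, while caspase-4 cuts gasdermin D after binding lipopolysaccharide. Epithelial cells store IL-18 as a precursor, and NLRP1 is the best known sensor of keratinocytes.

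PYCARD lies on the minus strand of chromosome 16, from 31212807 to 31214771 in GRCh37 (hg19), with an exon union of 1660 nt. Its promoter and that of CASP4 are shown because PYCARD had the widest range of levels of the 8 genes. CASP4 had the widest among the other genes whose promoter windows were used. The windows run from 250 bases before to 50 after the annotated start in RefSeq (GRCh38.p14) and were found for 4 of the 8 genes, PYCARD, CASP4, CASP8 and NLRX1. Both sequences are on the minus strand, PYCARD at chr16:31202711-31203010 and CASP4 at chr11:104968525-104968824, and capitals mark CG dinucleotides.
PYCARD: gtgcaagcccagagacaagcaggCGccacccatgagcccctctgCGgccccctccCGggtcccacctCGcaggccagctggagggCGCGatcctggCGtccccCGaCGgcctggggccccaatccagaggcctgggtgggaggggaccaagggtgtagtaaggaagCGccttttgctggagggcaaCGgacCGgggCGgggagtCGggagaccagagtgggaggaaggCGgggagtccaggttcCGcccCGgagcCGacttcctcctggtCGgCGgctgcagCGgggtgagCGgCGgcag
CASP4: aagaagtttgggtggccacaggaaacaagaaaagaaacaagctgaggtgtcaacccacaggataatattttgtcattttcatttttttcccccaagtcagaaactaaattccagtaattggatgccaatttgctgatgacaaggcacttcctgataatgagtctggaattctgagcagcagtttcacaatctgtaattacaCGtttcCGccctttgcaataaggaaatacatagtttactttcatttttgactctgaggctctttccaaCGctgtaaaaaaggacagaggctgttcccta
The PYCARD window held 23 CG dinucleotides and the CASP4 window 3, against a median of 14 and quartiles of 4 and 28 over 35116 RefSeq windows of 300 bases. Fewer CG dinucleotides were found in 64.2% of all windows than in that of PYCARD, and in 18.2% than in that of CASP4. NLRX1 had 5, and the 3 windows of CASP8 had 5 or 6. The letters TGANTCA (AP-1), TTCNNNGAA (GAS, bound by STAT dimers) and the ISRE core (GAAA, any 2 bases and GAAA, bound by interferon regulatory factors) were searched on both strands, where N is any base and matches may overlap. None of them was found in the windows of PYCARD, CASP4 and NLRX1. In CASP8 the first window held 1 GAS match, 200 bases before the start, and 1 ISRE match, 3 bases before it, and the other windows held 1 AP-1 match each, 1 and 61 bases before the start. Over all windows 7.71% held the AP-1 letters, 7.66% the GAS letters and 3.57% the ISRE letters. A match describes letters and not a bound site.

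The libraries held 20604377 to 37550457 reads on genes, with a median of 29210326. Values are normalised expression in log2 CPM as deposited, where CPM are the counts of a gene scaled to a common library size, in which a gene without reads stands at 0.0713 CPM. Of these reads, 8.22 to 15.7% fell on RN7SL1 and RN7SL2, abundant small cytoplasmic RNAs. MALINC1 stood at 1.07 and 1.58 CPM in MCF10A pLOC-empty and at 13.3 and 11.8 CPM in MCF10A pLOC-MALINC1. In DCIS.COM it stood at 1.42 and 1.22 CPM with pLOC-empty and at 24.5 and 19.2 CPM with pLOC-MALINC1. Its log2 fold change was 3.27 (SE 0.19) in MCF10A and 4.04 (SE 0.19) in DCIS.COM. All 14 epithelial markers were in the table, summing to 30770 to 42069 CPM in MCF10A and 10305 to 11092 CPM in DCIS.COM. Of 20 myeloid and lymphoid markers 4 were in the table (CD14, CSF1R, CD68 and CD74, 24.8 to 43.4 CPM in sum), and PTPRC, which marks leukocytes, was not. Of 11 fibroblast and endothelial markers, COL1A1 and PECAM1 were in the table, at 1.83 to 17.0 CPM in sum.

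PYCARD, which encodes the adaptor ASC, was read above its floor in DCIS.COM with pLOC-empty and at 0 to 2 reads in every other library. The DCIS.COM pLOC-empty pair held 110 and 104 PYCARD reads, or 5.20 and 5.04 CPM. The DCIS.COM pLOC-MALINC1 libraries held 1 PYCARD read each (0.10 CPM). MCF10A pLOC-empty held 2 and 0 reads (0.140 and 0.0713 CPM), and MCF10A pLOC-MALINC1 held 0 and 1 (0.0713 and 0.109 CPM). Both DCIS.COM pLOC-empty libraries therefore lay above all 6 others, which could not be ordered among themselves at 0 to 2 reads. Summed over the libraries, 214 reads with pLOC-empty stood against 2 with pLOC-MALINC1 in DCIS.COM, a ratio of normalised rates of 172 with an exact 95% counting interval of 47.1 to 1430. Against MCF10A pLOC-empty, which held 2 reads in all, the ratio was 130 (35.6 to 1082). The intervals cover counting error alone. The fitted log2 fold change in DCIS.COM was -5.67 (SE 0.38), a value that depends on the count added to each library before the logarithm. No fold is given in MCF10A or between the lines with pLOC-MALINC1, since both groups were at 3 reads or fewer per library. PYCARD-AS1, a lncRNA gene on the opposite strand, covers 991 nt (59.7%) of the PYCARD exons, and since the strand setting of the counting is not given in the sources used here, reads of the pair cannot be told apart. In bulk RNA, fewer cells with a transcript and less of it per cell cannot be told apart either.

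**Figure D1:**
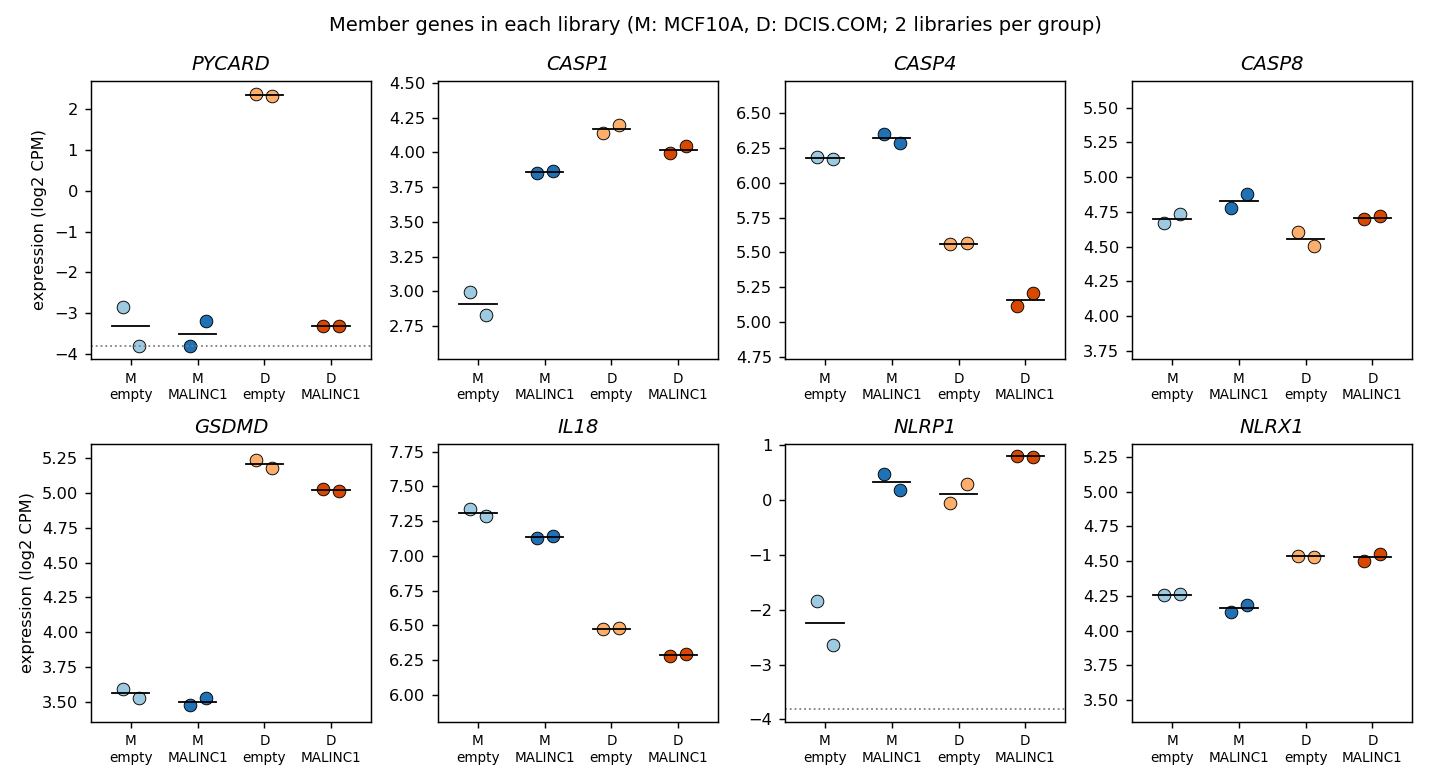
Normalised expression (log2 CPM) of the 8 genes in each library, with a point for each of the 2 libraries of a group, a bar at the group mean and an own vertical scale per gene. The dotted line marks a library without reads (0.0713 CPM): PYCARD is above 5 CPM in both DCIS.COM pLOC-empty libraries and near the line in the other 6, and CASP1 and NLRP1 are lowest in MCF10A pLOC-empty.

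The caspases differed in their pattern. CASP1, the protease of the inflammasome, had 7.97 and 7.11 CPM in MCF10A pLOC-empty and 14.5 and 14.6 CPM in MCF10A pLOC-MALINC1. In DCIS.COM it had 17.7 and 18.4 CPM with pLOC-empty and 16.0 and 16.5 CPM with pLOC-MALINC1. The MCF10A pLOC-empty libraries were thus lowest, and no groups overlapped. The share of all genes whose groups do not overlap was not counted. For this and the other genes, a separation of groups of 2 libraries is therefore only a description. The log2 fold change with pLOC-MALINC1 was 0.95 (SE 0.082) in MCF10A, just under 2-fold, and -0.15 (SE 0.082) in DCIS.COM. By the rule for calls given below, only the MCF10A change was called. CASP1 lies on chromosome 11 (104896124 to 104905977, minus strand), and 144 nt of its longest transcript (5.75%) also occur in the neighbouring CARD16, at the read length of 76 nt, so reads there could be assigned to either gene. CARD16, whose product has the CARD of caspase-1 without a protease, had 4.45 ± 0.194 CPM in MCF10A pLOC-empty and 3.58 ± 0.475 CPM in MCF10A pLOC-MALINC1 (SD, n = 2).

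CASP4, which senses cytosolic lipopolysaccharide, had a higher level per exon length than CASP1 and CASP8 in every group, and the sign of its fold change differed between the lines. It had 72.7 and 72.1 CPM in MCF10A pLOC-empty and 81.7 and 78.2 CPM in MCF10A pLOC-MALINC1. In DCIS.COM it had 47.3 and 47.4 CPM with pLOC-empty and 34.6 and 36.9 CPM with pLOC-MALINC1. The groups did not overlap, and their order was MCF10A pLOC-MALINC1, MCF10A pLOC-empty, DCIS.COM pLOC-empty and DCIS.COM pLOC-MALINC1. The log2 fold change with pLOC-MALINC1 was 0.14 (SE 0.045) in MCF10A and -0.40 (SE 0.045) in DCIS.COM. Of these, only the DCIS.COM change was called by the rule given below. CASP4 lies on chromosome 11 from 104813593 to 104840093, on the minus strand. CASP8, the initiator of death receptor apoptosis that restrains necroptosis, stayed between 22.7 and 29.5 CPM in all 8 libraries. Its groups had 26.0 ± 0.864 CPM and 28.4 ± 1.47 CPM in MCF10A, and 23.5 ± 1.18 CPM and 26.2 ± 0.354 CPM in DCIS.COM, with the empty vector and with MALINC1 in turn (SD, n = 2). The MCF10A pLOC-empty libraries (25.4 and 26.6 CPM) spanned those of DCIS.COM pLOC-MALINC1 (25.9 and 26.4 CPM). CASP8 is on the plus strand of chromosome 2, from 202098166 to 202226559.

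Gasdermin D and IL-18 are substrates of these caspases, and the cell line separated them more than the vector did. GSDMD, which encodes the pore former, had 12.1 and 11.5 CPM in MCF10A pLOC-empty and 11.1 and 11.5 CPM in MCF10A pLOC-MALINC1. It had 37.7 and 36.4 CPM in DCIS.COM pLOC-empty and 32.6 and 32.3 CPM in DCIS.COM pLOC-MALINC1. All DCIS.COM libraries were above all MCF10A libraries. The log2 fold change between DCIS.COM and MCF10A was 1.65 (SE 0.063) with pLOC-empty and 1.52 (SE 0.063) with pLOC-MALINC1. IL18 went the other way, with 161 and 156 CPM in MCF10A pLOC-empty and 140 and 141 CPM in MCF10A pLOC-MALINC1. In DCIS.COM it had 88.7 and 89.1 CPM with pLOC-empty and 77.7 and 78.5 CPM with pLOC-MALINC1. Every MCF10A library was above every DCIS.COM library, and within each line the pLOC-empty libraries were above the pLOC-MALINC1 libraries. The log2 fold change with pLOC-MALINC1 was -0.17 (SE 0.034) in MCF10A and -0.19 (SE 0.034) in DCIS.COM, and between the lines it was -0.84 with pLOC-empty and -0.85 with pLOC-MALINC1. GSDMD is on the plus strand of chromosome 8 (144635377 to 144645232) and IL18 on the minus strand of chromosome 11 (112013976 to 112034819).

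The NLR genes of the set were a rare and a steady transcript. NLRP1, a sensor that assembles an inflammasome once its restraint by DPP8 and DPP9 is lost, had 6 and 2 reads in MCF10A pLOC-empty (0.278 and 0.160 CPM). It had 47 and 28 reads in MCF10A pLOC-MALINC1 (1.38 and 1.13 CPM), 19 and 24 in DCIS.COM pLOC-empty (0.957 and 1.22 CPM) and 57 and 56 in DCIS.COM pLOC-MALINC1 (1.73 and 1.73 CPM). MCF10A pLOC-empty was lowest and DCIS.COM pLOC-MALINC1 highest, while the groups between them overlapped. The log2 fold change with pLOC-MALINC1 was 2.57 (SE 0.28) in MCF10A and 0.68 (SE 0.28) in DCIS.COM. On these few reads the size of a fold depends on the count added: with 1 CPM added to each value it was 0.89 in MCF10A. NLRX1, a mitochondrial NLR protein known to dampen antiviral and NF-kappaB signalling, had 19.1 and 19.2 CPM in MCF10A pLOC-empty and 17.6 and 18.2 CPM in MCF10A pLOC-MALINC1. It had 23.3 and 23.1 CPM in DCIS.COM pLOC-empty and 22.6 and 23.5 CPM in DCIS.COM pLOC-MALINC1, groups that overlapped. Its log2 fold change with pLOC-MALINC1 was -0.099 (SE 0.060) in MCF10A and -0.0066 (SE 0.060) in DCIS.COM. On the same strand 1500 nt (7.44%) of the NLRP1 exons are shared with an unnamed protein-coding gene, and 4.74% of the exons of CASP8 with an unnamed lncRNA. On the opposite strand 2.67% of the GSDMD exons are shared with another unnamed lncRNA, and reads in these stretches are uncertain. NLRP1 is on chromosome 17 (5402735 to 5522744, minus strand) and NLRX1 on chromosome 11 (119037277 to 119054725, plus strand).

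Levels of different genes can be compared roughly per length of their exon union. The union was taken over all GENCODE transcripts, from 1660 nt for PYCARD to 20157 nt for NLRP1, while reads were assigned to UCSC genes. The order of the genes thus depends on the transcripts annotated. In DCIS.COM pLOC-empty, IL18 had 34.1 CPM per kb, GSDMD 7.28, CASP4 7.10, CASP1 4.54, NLRX1 4.36, CASP8 3.25, PYCARD 3.08 and NLRP1 0.0539. In that group PYCARD was thus near CASP8. In the other groups PYCARD had 0.0543 to 0.0637 CPM per kb, below the 6 genes other than NLRP1. These values rest on 0 to 2 reads per library and the count added to each, so PYCARD and NLRP1, which had 0.0109 to 0.0858 CPM per kb in those groups, were not ranked. In MCF10A pLOC-empty IL18 led with 61.0 CPM per kb, followed by CASP4 with 10.9.

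With pLOC-MALINC1 in MCF10A, 2 of the 8 genes (CASP1 and NLRP1) were called higher and 1 (IL18) lower at an adjusted p under 0.01 by limma with Benjamini-Hochberg adjustment over all 13842 genes. Over all genes 21.5% were called higher and 18.1% lower. At more than 2-fold, NLRP1 was called higher, beside 2.99% of all genes called higher and 2.51% lower. In DCIS.COM none was called higher and 3 (PYCARD, CASP4 and IL18) were called lower, beside 16.4% and 16.7% of all genes. At more than 2-fold it was PYCARD, beside 1.44% of all genes called higher and 3.08% lower. The median log2 fold change of the 8 genes was 0.032 in MCF10A, against 0 over all genes. In DCIS.COM it was -0.17, against 0.0089. In DCIS.COM the split of all calls moved with the scaling of the libraries: 49.5% of calls were higher as deposited, 30.5% with RN7SL1 and RN7SL2 left out of the totals and 73.6% without the scaling factors. Under these settings 0 of the 8 genes were higher and 4 lower (GSDMD added), and 1 higher (CASP8) and 2 lower (PYCARD and CASP4), respectively. The contrast of the responses, DCIS.COM minus MCF10A, was called for PYCARD, CASP1, CASP4 and NLRP1, 4 of 8 and all in the negative direction, with 35.9% of all genes called in either direction. PYCARD was at its floor in both MCF10A groups and could not be seen to fall there. Its fall in DCIS.COM thus set the sign of its contrast. At more than 2-fold it was called for 3, without CASP4, beside 9.2% of all genes. Of all calls of this contrast 43.5% were positive, and 63.7% without the scaling factors. Its log2 value was -1.10 (SE 0.12) for CASP1, -0.55 (SE 0.063) for CASP4 and -1.89 (SE 0.40) for NLRP1. The NLRP1 contrast was no longer called with 1 CPM added (-0.50), under quantile normalization (-1.35), without trend, without MCF10A pLOC-MALINC1 replicate 1 (-1.74) or without DCIS.COM pLOC-empty replicate 2 (-1.71). Each pLOC-empty pair enters both a comparison of vectors and one of lines, so these comparisons share libraries.

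**Figure D2:**
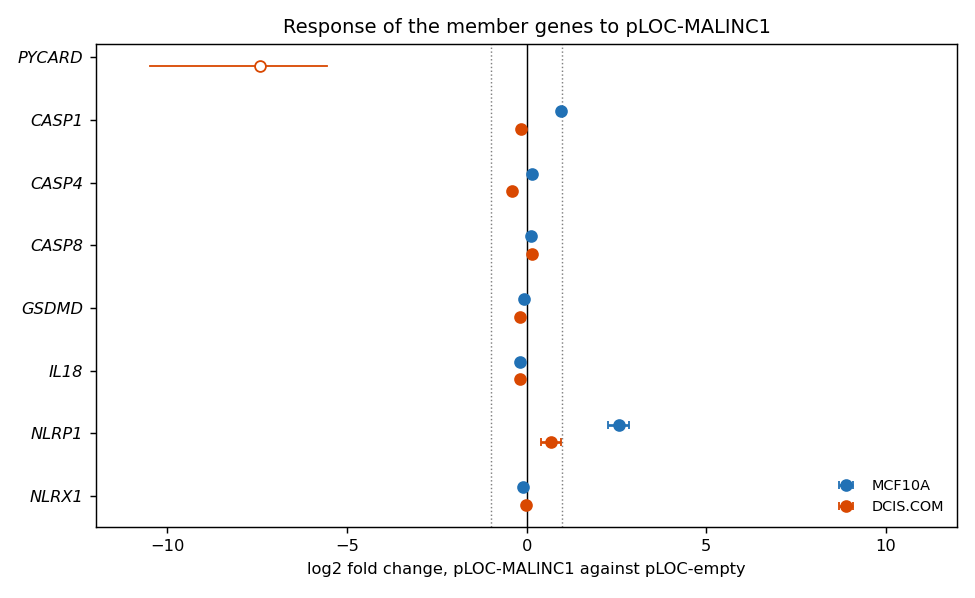
Log2 fold change of the 8 genes with pLOC-MALINC1 against pLOC-empty in MCF10A (blue) and DCIS.COM (orange), with bars of 1 standard error and dotted lines at 2-fold. PYCARD is drawn as an open point for DCIS.COM, the ratio of reads with its 95% counting interval, and not for MCF10A; CASP1 is at 0.95 in MCF10A and -0.15 in DCIS.COM.

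Between the lines with pLOC-empty, 5 of the 8 genes were called higher in DCIS.COM (PYCARD, CASP1, GSDMD, NLRP1 and NLRX1) and 2 lower (CASP4 and IL18), beside 37.9% of all genes called higher and 36% lower. Over 2-fold, 4 were higher, without NLRX1, and 0 lower, beside 15.6% and 13% of all genes. With pLOC-MALINC1, GSDMD and NLRX1 were called higher and CASP4 and IL18 lower, beside 35.7% and 37.2%. Over 2-fold these were GSDMD and CASP4, beside 14.4% and 12.2% of all genes. The log2 fold change of CASP1 was 1.26 (SE 0.082) with pLOC-empty and 0.16 (SE 0.082) with pLOC-MALINC1, and that of NLRP1 2.36 (SE 0.28) and 0.47 (SE 0.28). For CASP4 it was -0.61 (SE 0.045) and -1.16 (SE 0.045). In these comparisons 73.9% and 73.0% of all genes were called, so a call between the lines was the common case. Without the scaling factors, the share of calls in the direction of DCIS.COM was 63.3% instead of 49.0% with pLOC-MALINC1, and the count over 2-fold there was 1 of 8 instead of 2.

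**Figure D3:**
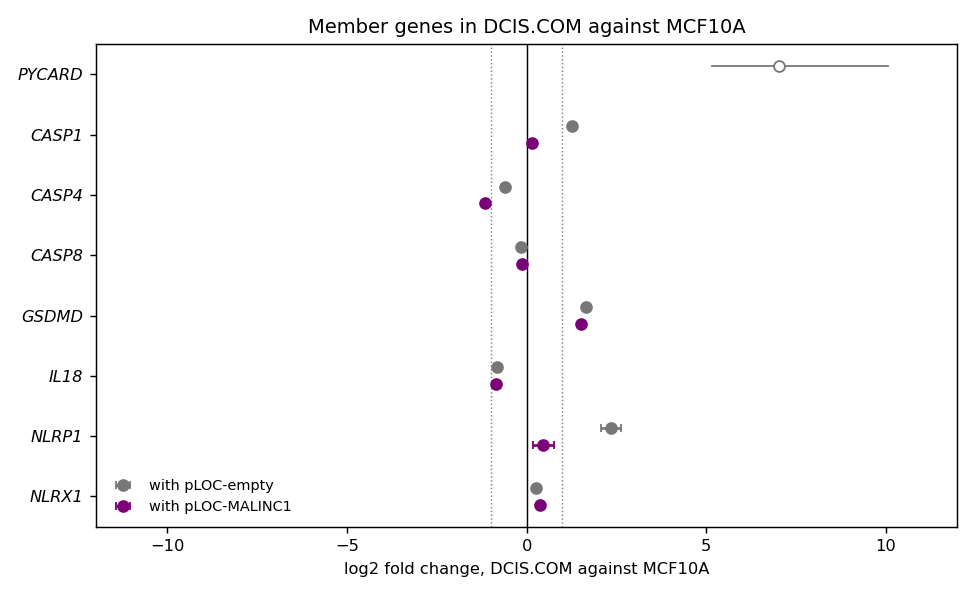
Log2 fold change of the 8 genes in DCIS.COM against MCF10A, with pLOC-empty (grey) and with pLOC-MALINC1 (purple), with bars of 1 standard error and dotted lines at 2-fold. The open point is the ratio of PYCARD reads with its 95% counting interval; GSDMD lies at 1.65 and 1.52 and IL18 at -0.84 and -0.85.

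The genes around PYCARD on chromosome 16 were examined in the same contrast. Of the genes that start 50 to 250 kb from its start in GRCh37, 11 were tested, all at lower coordinates. In DCIS.COM 1 of them was called lower and 2 higher with pLOC-MALINC1, beside 16.7% and 16.4% of all genes. By more than 2-fold 0 were called, and the log2 fold changes ran from -0.36 to 0.44. STX4, which encodes a syntaxin, had a log2 fold change of -0.36 (SE 0.088, limma adjusted p = 0.00535), from 11.7 to 9.12 CPM, and ZNF646 had 0.44 (SE 0.12, adjusted p = 0.00788).

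**Figure D4:**
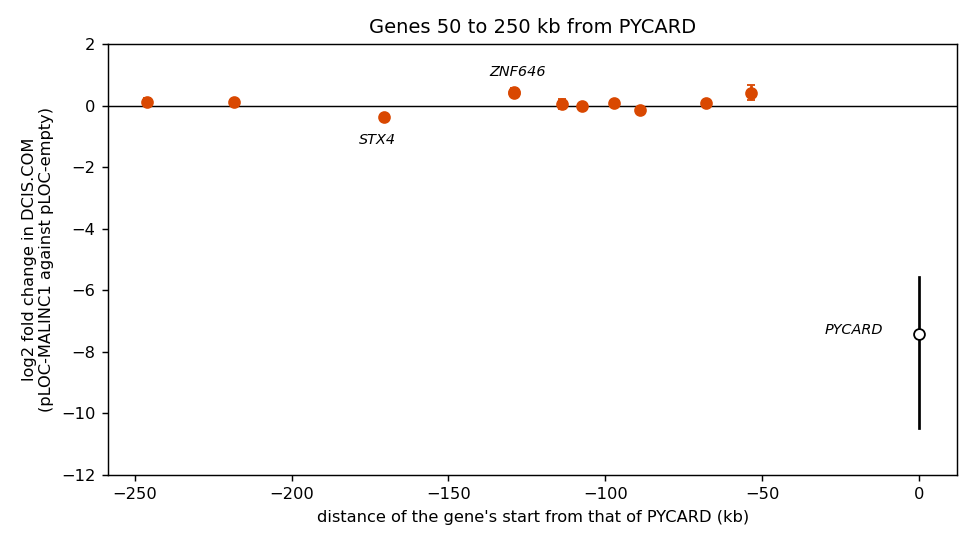
Log2 fold change with pLOC-MALINC1 in DCIS.COM for the 11 genes tested 50 to 250 kb from PYCARD (orange, bars of 1 standard error) against the distance of their start from that of PYCARD in kb, with PYCARD as the ratio of reads (open point, 95% counting interval). The neighbours lie between -0.36 and 0.44.

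Genes with the most similar profile to PYCARD were ranked by Pearson correlation of log2 CPM over the 8 libraries, among 11522 genes with a group mean of 5 CPM or more. The values are descriptive, since the libraries share 2 lines and 1 group sets the pattern. The highest were MTRNR2L2 (0.991), GPR108 (0.988), NDUFB6 (0.988), EFNA1 (0.987) and TMX4 (0.987). MTRNR2L2, a humanin-like gene with near-identical copies in the genome and in mitochondrial DNA whose reads are therefore uncertain, had 529 ± 3.45 CPM in DCIS.COM pLOC-empty and 30.5 to 31.8 CPM on average in the other groups (SD, n = 2). EFNA1, which encodes an ephrin ligand, had 43.1 ± 2.46 CPM there and 28.2 to 29.4 CPM elsewhere. The lowest were MALL (-0.990), ZNF649 (-0.985) and KRT13 (-0.979). KRT13, a keratin of stratified epithelia, had 2.12 ± 0.133 CPM in DCIS.COM pLOC-empty, and 22.0 ± 1.61, 37.7 ± 2.83 and 39.7 ± 2.90 CPM in MCF10A pLOC-empty, MCF10A pLOC-MALINC1 and DCIS.COM pLOC-MALINC1. By Spearman correlation, 1 of the 5 highest was shared, and rho for the 5 ran from 0.548 to 0.976.

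The rest of the pathway was covered by 7 lists of 128 genes that hold none of the 8, of which 96 were in the table. With pLOC-MALINC1 in MCF10A, 33 of the 96 were higher and 14 lower (6 and 0 over 2-fold), with a median log2 fold change of 0.084 against 0 for all genes. In DCIS.COM, 8 were higher and 33 lower (0 and 5 over 2-fold), with a median of -0.090 against 0.0089. These shares stood beside the background shares of calls given above, 39.6% of all genes in MCF10A, where the lists had 49.0%, and 33.2% in DCIS.COM, where they had 42.7%. The split in DCIS.COM depended on the scaling, with 2 higher and 42 lower when RN7SL1 and RN7SL2 were left out of the totals, and 22 higher and 24 lower without the scaling factors, where the median of all genes shifted by 0.12. In MCF10A the same settings gave 28 higher and 16 lower, and 30 higher and 12 lower. The contrast of the responses was called for 48 genes, 11 in the positive and 37 in the negative direction, or 11.5% and 38.5% of the lists beside 15.6% and 20.3% of all genes, with a median of -0.21 against -0.0071. Without the scaling factors it was 14 and 30, and with RN7SL1 and RN7SL2 left out of the totals 4 and 40. Both responses were called in opposite directions for 13 genes (13.5%), with a positive response in MCF10A and a negative one in DCIS.COM, beside 4.2% of all genes. The reverse was called for 0 of the 96 and for 3.61% of all genes. For 5 genes both were called higher and for 4 both lower, 5.21% and 4.17% beside 5.42% and 3.97% of all genes. Joint directions were counted at the deposited scaling only, and the lists were chosen with earlier results of these data known.

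**Figure D5:**
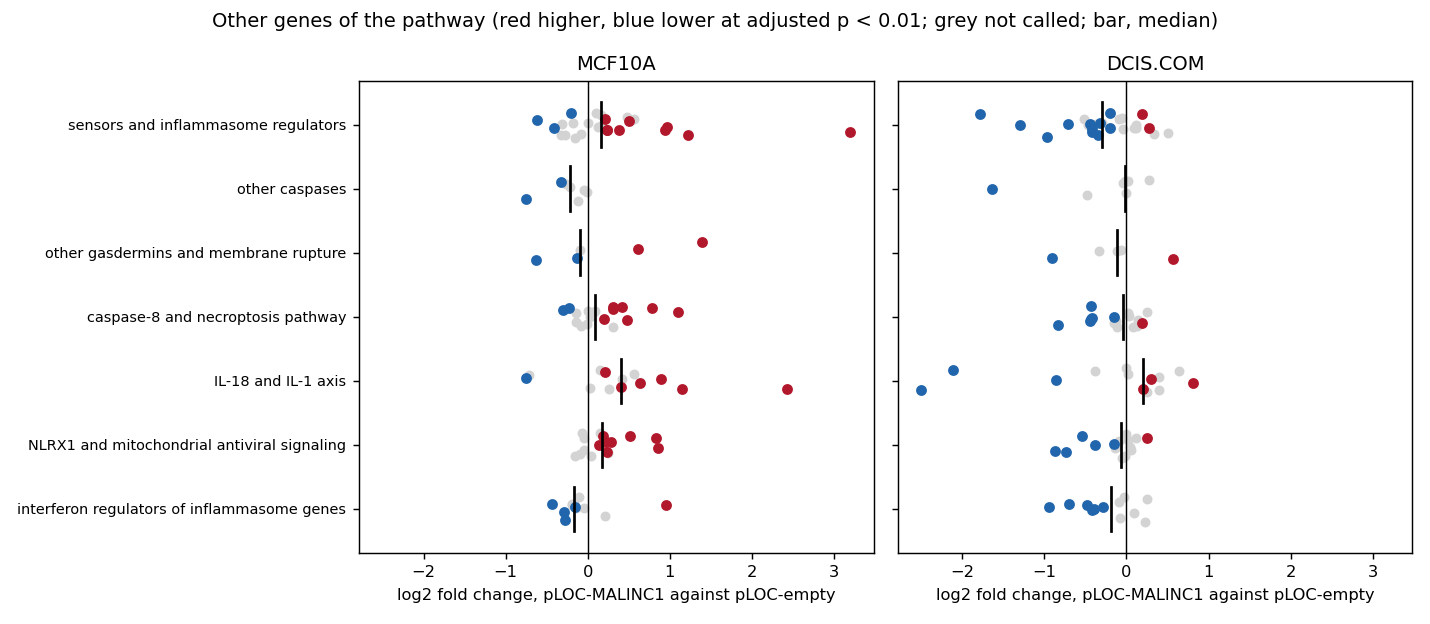
Log2 fold change with pLOC-MALINC1 of the 96 other pathway genes by list, in MCF10A (left) and DCIS.COM (right). Red and blue points were called higher or lower at an adjusted p under 0.01 by limma, grey points were not called, and a black bar marks the median of a list: it is 0.16 in MCF10A and -0.30 in DCIS.COM for the sensors and regulators.

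Among the sensors and inflammasome regulators 25 of 42 genes were in the table, and AIM2 and NLRC4 were not. Under pLOC-MALINC1, 9 were higher and 3 lower in MCF10A, while DCIS.COM had 2 higher and 11 lower. Without the scaling factors the latter were 4 and 7, and with RN7SL1 and RN7SL2 left out of the totals 1 and 15. Beside this and each further list, 21.5% of all genes were called higher and 18.1% lower in MCF10A. In DCIS.COM these shares were 16.4% and 16.7%. NLRP10, an NLR protein of epithelia, rose from 0.263 ± 0.0211 to 2.43 ± 0.403 CPM in MCF10A (log2 fold change 3.20, SE 0.33, adjusted p = 6.27e-06). NLRP3, the best studied inflammasome sensor, rose from 0.876 ± 0.114 to 2.04 ± 0.00983 CPM (1.23, SE 0.33, adjusted p = 0.00732), on 20 to 71 reads per library. In the DCIS.COM libraries NLRP3 had 0 to 2 reads, and with pLOC-MALINC1 its ratio of MCF10A to DCIS.COM was 67.2 (123 reads against 2, exact 95% counting interval 18.2 to 561). BIRC3, an inhibitor of apoptosis protein and NF-kappaB target, fell from 42.5 ± 0.00155 to 12.3 ± 0.744 CPM in DCIS.COM (-1.79, SE 0.051, adjusted p = 9.37e-11). GBP2, an interferon-induced GTPase, fell there from 10.1 ± 0.332 to 4.11 ± 0.187 CPM (-1.30, SE 0.099, adjusted p = 5.59e-07). GBP2 was called lower in MCF10A too, from 11.1 ± 0.289 to 7.21 ± 0.0512 CPM. IFI16, a DNA sensor with a pyrin domain that was singled out after its values were seen, rose in MCF10A (0.96, SE 0.043, adjusted p = 4.51e-09) and fell in DCIS.COM (-0.72, SE 0.043, adjusted p = 6.46e-08). Between the lines, 5 of the list were higher and 13 lower in DCIS.COM with pLOC-empty, and 4 higher and 17 lower with pLOC-MALINC1. Here and for each further list, the shares of all genes were 37.9% and 36% with pLOC-empty, and 35.7% and 37.2% with pLOC-MALINC1. NOD2, a receptor for bacterial muramyl dipeptide, was lower in DCIS.COM with pLOC-empty (-2.79, SE 0.22, adjusted p = 1.02e-07) and with pLOC-MALINC1 (-4.33, SE 0.22, adjusted p = 1.52e-09). CARD6, a CARD protein that modulates NF-kappaB signalling, was lower with pLOC-empty (-1.45, SE 0.070, adjusted p = 6.96e-10).

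Of the other caspases 7 of 9 were in the table, 0 higher and 2 lower in MCF10A and 0 higher and 1 lower in DCIS.COM with pLOC-MALINC1. The DCIS.COM split was 1 and 1 without the scaling factors, and 0 and 2 with RN7SL1 and RN7SL2 left out of the totals. CASP6, an executioner caspase, fell in MCF10A from 47.3 ± 1.04 to 37.9 ± 1.22 CPM (-0.32, SE 0.061, adjusted p = 0.000801). CASP10, the paralog of CASP8, fell in DCIS.COM from 1.58 ± 0.158 to 0.602 ± 0.462 CPM (-1.64, SE 0.40, adjusted p = 0.0048), where the latter libraries held 7 and 29 reads. CASP14, the caspase of cornification, had 33.3 ± 1.10 CPM in MCF10A pLOC-empty and 19.8 ± 0.615 CPM in MCF10A pLOC-MALINC1, and no read in any DCIS.COM library. Against a floor of 3 reads per library it was at least 232-fold lower in DCIS.COM with pLOC-empty and at least 223-fold lower with pLOC-MALINC1. CASP10 was lower in DCIS.COM as well (-1.93 with pLOC-empty and -3.56 with pLOC-MALINC1, SE 0.40). Between the lines 0 of the list were higher and 6 lower with pLOC-empty, and 0 and 5 with pLOC-MALINC1.

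Of the other genes of gasdermins and membrane rupture 5 of 8 were in the table. In MCF10A 2 were higher (GSDMC and GSDME) and 2 lower (CHMP3 and NINJ1), and in DCIS.COM 1 was higher (GSDMC) and 1 lower (NINJ1). GSDME, the gasdermin that caspase-3 cuts, rose in MCF10A from 2.66 ± 0.0929 to 6.99 ± 0.541 CPM (1.39, SE 0.12, adjusted p = 9.31e-07). NINJ1, which ruptures the plasma membrane of dying cells, fell in DCIS.COM from 107 ± 2.66 to 56.9 ± 0.154 CPM (-0.91, SE 0.045, adjusted p = 1.14e-08). With pLOC-MALINC1 in MCF10A it was lower as well, from 28.2 ± 0.0716 to 18.3 ± 0.460 CPM. GSDMC was lower in DCIS.COM than in MCF10A with pLOC-empty (-4.24, SE 0.13, adjusted p = 1.32e-11) and with pLOC-MALINC1 (-4.28, SE 0.13). NINJ1 was higher in DCIS.COM with both vectors (1.92 and 1.64, SE 0.045), and GSDME with pLOC-empty (1.80, SE 0.12). In all 2 of the 5 were higher and 3 lower with pLOC-empty, and 1 and 3 with pLOC-MALINC1.

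In the caspase-8 and necroptosis pathway 18 of 21 genes were in the table, without RIPK3, the kinase that activates MLKL. Under pLOC-MALINC1, 7 were higher and 2 lower in MCF10A, while DCIS.COM had 1 higher and 6 lower. The DCIS.COM split depended on the scaling, with 6 and 5 without the scaling factors. It was 0 and 6 with RN7SL1 and RN7SL2 left out of the totals. TNFRSF10A, a receptor for the death ligand TRAIL, rose in MCF10A from 27.3 ± 1.03 to 58.4 ± 2.32 CPM (1.10, SE 0.055, adjusted p = 1.10e-08). TNFRSF10D, a decoy receptor of TRAIL, fell in DCIS.COM from 63.9 to 47.4 CPM (-0.43, SE 0.048, adjusted p = 1.40e-05). FADD and RIPK1, which bind CASP8 in death receptor complexes, were not called in either line. Between the lines 7 were higher and 10 lower in DCIS.COM with pLOC-empty, and 3 and 12 with pLOC-MALINC1. TNFSF10, which encodes TRAIL, was higher in DCIS.COM with pLOC-empty (1.79, SE 0.12, adjusted p = 2.42e-08). CFLAR, an inhibitor of CASP8 activation, was lower with pLOC-empty (-1.15, SE 0.065) and with pLOC-MALINC1 (-1.58, SE 0.065, adjusted p = 1.79e-10). SHARPIN, a subunit of the linear ubiquitin ligase, was lower with pLOC-empty (-1.22, SE 0.054), and FAS, a death receptor, with pLOC-MALINC1 (-1.07, SE 0.054).

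In the IL-18 and IL-1 axis 13 of 19 genes were in the table. Under pLOC-MALINC1, 6 were higher and 1 lower in MCF10A, while DCIS.COM had 3 higher and 3 lower. The latter were 5 and 3 without the scaling factors, and 1 and 3 with RN7SL1 and RN7SL2 left out of the totals. IL1B, the other cytokine that caspase-1 matures, fell in DCIS.COM from 13.0 ± 0.113 to 2.30 ± 0.226 CPM (-2.50, SE 0.22, adjusted p = 1.96e-06), and IL1A, an alarmin of epithelia, from 20.1 ± 0.838 to 4.66 ± 0.347 CPM (-2.11, SE 0.10, adjusted p = 7.87e-09). In MCF10A both rose, IL1B by 0.89 (SE 0.22, adjusted p = 0.00489) and IL1A by 0.41 (SE 0.10, adjusted p = 0.00462) on the log2 scale, and the contrast of the responses was called for both (adjusted p = 2.65e-06 and 2.77e-08). IL1R2, a decoy receptor, rose in MCF10A from 1.28 ± 0.0881 to 6.93 ± 0.0810 CPM (2.43, SE 0.22, adjusted p = 1.95e-06). IL1RAP, the accessory receptor chain, rose there from 28.3 ± 0.437 to 62.6 ± 1.57 CPM (1.15, SE 0.039, adjusted p = 4.29e-10). IL18R1, a receptor chain of IL-18, fell in DCIS.COM from 3.40 ± 0.555 to 1.87 ± 0.375 CPM (adjusted p = 0.00547), and IL18BP, which binds IL-18, stayed between 0.592 and 1.04 CPM on average and was not called in either line. Between the lines 5 were higher and 6 lower in DCIS.COM with pLOC-empty, and 2 and 7 with pLOC-MALINC1 (5 and 7 without the scaling factors). IL1RN, the receptor antagonist, was lower in DCIS.COM (-4.41 with pLOC-empty and -4.24 with pLOC-MALINC1, SE 0.082), as was IL1R1, the signalling receptor, with pLOC-empty (-3.42, SE 0.17) and IL1R2 with pLOC-MALINC1 (-4.14, SE 0.22). IL1RAP was higher in DCIS.COM with both vectors (2.40 and 1.25, SE 0.039), IL1B with pLOC-empty (3.10, SE 0.22) and SIGIRR, an inhibitory receptor of the family, with pLOC-MALINC1 (1.34, SE 0.099).

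The list on NLRX1 and mitochondrial antiviral signalling had all 16 genes in the table, with 8 higher and 0 lower in MCF10A and 1 higher and 5 lower in DCIS.COM. The DCIS.COM split was 2 and 4 without the scaling factors, and 0 and 7 with RN7SL1 and RN7SL2 left out of the totals. DDX58, which encodes the RNA sensor RIG-I, rose in MCF10A from 16.9 ± 0.963 to 30.1 ± 1.29 CPM (0.83, SE 0.074, adjusted p = 1.66e-06). UQCRC2, a subunit of respiratory complex III that binds NLRX1, fell in DCIS.COM from 197 ± 2.98 to 152 ± 3.07 CPM (-0.38, SE 0.033, adjusted p = 2.02e-06). MAVS, the adaptor of RIG-I, was not called in either line. With pLOC-empty 7 of the 16 were higher and 4 lower in DCIS.COM than in MCF10A, and 3 and 9 with pLOC-MALINC1 (6 and 5 without the scaling factors). STING1, the adaptor of cytosolic DNA sensing, was higher in DCIS.COM with pLOC-empty (1.97, SE 0.093) and pLOC-MALINC1 (1.03, SE 0.093), and IKBKE, an antiviral kinase, with pLOC-empty (1.66, SE 0.090). DDX58 was lower in DCIS.COM with pLOC-MALINC1 (-1.09, SE 0.074).

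Of the interferon regulators of inflammasome genes 12 of 13 were in the table, with 1 higher and 4 lower in MCF10A and 0 higher and 6 lower in DCIS.COM. The latter were 3 and 3 without the scaling factors, and 0 and 7 with RN7SL1 and RN7SL2 left out of the totals. IFNGR2, a chain of the interferon-gamma receptor, rose in MCF10A from 26.7 ± 0.289 to 51.7 ± 1.93 CPM (0.95, SE 0.045, adjusted p = 6.66e-09). In DCIS.COM it fell from 82.4 ± 1.51 to 50.8 ± 1.01 CPM (-0.70, SE 0.045, adjusted p = 1.14e-07). Between the lines 4 were higher and 6 lower with pLOC-empty, and 2 and 7 with pLOC-MALINC1 (5 and 6 without the scaling factors). IRF2, a regulator of GSDMD transcription, was higher in DCIS.COM with pLOC-empty (1.18, SE 0.077, adjusted p = 1.44e-08) and pLOC-MALINC1 (1.57, SE 0.077, adjusted p = 9.76e-10). JAK2, a kinase of the interferon-gamma receptor, was lower with pLOC-empty (-1.05, SE 0.081), while IFNGR2 was higher (1.63, SE 0.045). Over all lists 30 genes were higher and 48 lower in DCIS.COM with pLOC-empty, with a median of -0.27 against 0.031 for all genes, and 15 and 60 with pLOC-MALINC1, with a median of -0.49 against 0.0055. Without the scaling factors the latter were 26 and 49.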

How the data were processed

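The data were 8 libraries, 2 for each line and vector. The authors mapped 76 nt paired-end reads on hg19 (Rsubread), assigned them to UCSC genes (featureCounts) and deposited log2 CPM values from edgeR. Tool versions, strand setting and low-expression filter are not given in the sources used here. Whole reads were recovered for 100% of values (tolerance 0.1 read). The scaling factors recovered from the deposited log2 values equalled TMM factors, with a prior count of 2 reads at the mean library size. All 8 columns were mapped by name, and 346 genes without a symbol were kept in the fit.

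For the tests, limma 3.58.1 (R 4.3.3) took the log2 CPM with a mean per group, using eBayes with trend (4 residual and 7.98 prior degrees of freedom). Genes at 0.5 CPM or more in 2 libraries were tested, which kept all 13842 and all 8 members. A call was an adjusted p under 0.01 (Benjamini-Hochberg over all genes), with or without a change over 2-fold. The steps were tested on simulated reads, with changes placed only in genes of a higher mean level than PYCARD and NLRP1. That test does not cover changes on so few reads. Members and lists were chosen with earlier results of these data known. The lists were sensors and inflammasome regulators, other caspases, other gasdermins and membrane rupture, the caspase-8 and necroptosis pathway, the IL-18 and IL-1 axis, NLRX1 and mitochondrial antiviral signaling, and interferon regulators of inflammasome genes, beside epithelial, myeloid and lymphoid, and fibroblast and endothelial markers. From each list and comparison of groups, the text names up to 2 rises and 2 falls over 2-fold with the largest change at 1 CPM or more, or otherwise the gene with the smallest adjusted p. Further genes named in a clause of their own were chosen after their values were seen. Alternatives covered the pseudocount, filter, scaling, trend, replicate number as a block, each line alone and each library left out. Replicate numbers did not pair the libraries. Ratios of reads have exact (Clopper-Pearson) 95% intervals. Genes nearer to PYCARD than 50 kb are not reported here. Positions are from GENCODE on GRCh37 and promoters from RefSeq on GRCh38.p14.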

Additional observations from a re-analysis of the deposited data

Results flagged for a closer look

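The interaction contrast of limma, which compares the response to pLOC-MALINC1 between the lines, was called at an adjusted p under 0.01 for 4 of the 8 genes, beside 35.9% of all genes. As DCIS.COM minus MCF10A, the log2 difference was -5.487 for PYCARD, -1.099 for CASP1, -0.5468 for CASP4 and -1.886 for NLRP1. The size for PYCARD rests on 0 to 2 reads per library in 3 of the 4 groups and depends on the count added to each library. With both MCF10A groups at that floor, a fall there could not be seen. The fall in DCIS.COM by itself thus made the contrast of PYCARD negative. For NLRP1 it rests on 2 to 57 reads per library. Its contrast lost the call under 3 other settings and without either of 2 libraries, as given with its value above. CASP1 and CASP4 were each higher in both pLOC-MALINC1 libraries than in both pLOC-empty libraries of MCF10A, and lower in both in DCIS.COM. The changes of CASP1 in DCIS.COM and of CASP4 in MCF10A were not called. CASP8 and GSDMD, which were not called in MCF10A, were separated by the vector there too. The share of all genes so separated was not counted. The genes were chosen with these values known, so the differences are a description.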

How the results depend on the processing

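Of the counts of calls, 595 stayed within 1.5 times under the alternatives run and 17 did not. Of the fold changes of the 8 genes, each counted once per comparison and alternative, 783 kept direction and side of the threshold, 10 lost the call, 3 gained it and 15 reversed. Several alternatives leave the size of a fold change as it is, so its direction could not move. Among them are the fit without trend, each line alone and a library left out of another group. The 783 are therefore no measure of stability. Members called at any fold ranged from 2 to 3 in MCF10A and from 2 to 4 in DCIS.COM. Members called over 2-fold in MCF10A were 0 with 1 CPM added and 0 with a filter at 5 CPM, which drops NLRP1, and 1 to 2 with each library left out (2 without MCF10A pLOC-empty replicate 1). Between the lines with pLOC-MALINC1 they were 1 without scaling factors, an alternative chosen after seeing the data. Pathway genes called in MCF10A were 30 without trend and 30 to 47 with each library left out (30 without MCF10A pLOC-empty replicate 1 and 31 without MCF10A pLOC-MALINC1 replicate 1). In DCIS.COM they were 27 without trend, 21 with each line fitted alone, and 27 to 37 with each library left out (27 without DCIS.COM pLOC-MALINC1 replicate 2). Of all genes, calls in MCF10A were 3101 with each line alone, and over 2-fold 497 and 404 with 0.5 and 1 CPM added and 487 with the filter at 5 CPM. In DCIS.COM they were 2915 without trend and 2559 with each line alone, and over 2-fold 354 with 1 CPM added. The cause was not tested.

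Reversed values were small. For PYCARD, at its floor, the change in MCF10A ran from -0.67 to 0.31 with each library left out (0.31 without MCF10A pLOC-empty replicate 1, 0.13 without MCF10A pLOC-MALINC1 replicate 1). Between the lines with pLOC-MALINC1 it was -0.12 under quantile normalization and -0.12 to 0.50 with each library left out. The contrast of responses for CASP8 was -0.025 with RN7SL1 and RN7SL2 left out and -0.023 to 0.083 with each library left out, and CASP8 between the lines with pLOC-MALINC1 was 0.080 without scaling factors. The contrast for IL18 was 0.020 under quantile normalization, 0.12 without scaling factors and -0.036 to 0.010 with each library left out. NLRX1 in DCIS.COM was 0.0018 under median centring, 0.11 without scaling factors and -0.033 to 0.020 with each library left out. IL18 lost its call in MCF10A without trend, with each line alone and without MCF10A pLOC-empty replicate 1, and in DCIS.COM without trend and without scaling factors.

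With the replicate number as a block, 3, 3, 4, 7 and 4 of the 8 genes were called in the comparisons in the order above, as without the block, and 45 and 40 pathway genes in MCF10A and DCIS.COM. Deviations of same-numbered libraries correlated from -0.15 to 0.11, so the numbers were not taken to pair the libraries. A crossed replicate block, chosen after seeing the data, called 48 and 41 pathway genes. The scaling factors of the authors equalled TMM factors, so the TMM alternative repeats the reported values. The edgeR and DESeq2 alternatives were not run, since the deposited unit is log2. With 0 to 2 PYCARD reads in 6 libraries, differences among those were not detectable at this depth.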

Other observations

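Genes with a drop like that of PYCARD were counted under limits set close to its own values, which PYCARD met by construction. The count is thus no measure of how rare such a drop is. In DCIS.COM 3.08% of all genes were called lower over 2-fold. Of 10939 genes at 4 CPM or more in both DCIS.COM pLOC-empty libraries, 4 had 3 reads or fewer in each DCIS.COM pLOC-MALINC1 library: ANPEP, PTX3, PNLIPRP3 and PYCARD. These limits and genes were chosen after the values were seen. ANPEP, a membrane aminopeptidase, had 16.0 CPM in DCIS.COM pLOC-empty, and 722 and 562 CPM in MCF10A with pLOC-empty and pLOC-MALINC1. PNLIPRP3, a lipase-related gene, had 6.01, 77.1 and 87.1 CPM in these groups. PTX3, a soluble pattern recognition molecule, had 10.4 CPM in DCIS.COM pLOC-empty and 0.224 and 0.873 CPM in MCF10A. PYCARD alone of the 4 had 3 reads or fewer in all MCF10A libraries as well. PECAM1, listed as an endothelial marker, fell from 6.71 ± 0.810 to 0.204 ± 0.0636 CPM in DCIS.COM (SD, n = 2). The markers CD74, at 38.2 and 34.1 CPM in DCIS.COM and 0.138 and 0.184 CPM in MCF10A, and CSF1R, at 24.0 and 11.9 CPM in MCF10A and 0.710 and 0.379 CPM in DCIS.COM, separated the lines.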
